A study of Mus musculus with 24 samples.

Results

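The WNT ligands, receptors and regulators of the mouse blastocyst are described here across 24 microarrays. The members were taken by gene name: every non-control probe for a Wnt, Fzd, Sfrp, Dkk, Axin, Dvl or Rspo gene with a number, and the probes for Ctnnb1, Lrp5, Lrp6, Tcf7, Tcf7l1, Tcf7l2, Lef1, Apc, Gsk3b, Porcn and Wls. This gave 94 of 56605 probes on the array and 57 of 37074 gene names. The blastocyst is the embryo just before implantation, made of an inner cell mass and an outer trophectoderm, with the primitive endoderm arising from the inner cells. RNA came from pools of frozen expanded mouse blastocysts under 6 condition codes, HC1 to HC6, with 4 pools for each code. A pool held 15 embryos in HC1 to HC5 and 20 in HC6, so the code HC6 and its pool size cannot be told apart. The series title concerns bisphenol A and membrane estrogen receptor activation, but the labels give no treatment, dose, strain or age for any code and name no control. The codes were therefore compared with each other. Since no label says that the pools of a code came from separate females or days, a p-value reflects the spread among these pools alone, which may be technical.

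WNT proteins are secreted ligands. Porcn, an acyltransferase, adds the lipid they need, and Wls carries them to the cell surface. At the receiving cell they bind a Frizzled receptor together with Lrp5 or Lrp6 and act through Dishevelled on a complex of Axin, Apc and Gsk3b that otherwise marks beta-catenin (Ctnnb1) for degradation, and beta-catenin then works with the TCF/LEF factors on target genes. Dkk and Sfrp proteins are secreted antagonists, and R-spondins strengthen the signal. In embryonic stem cells, which derive from the inner cell mass, WNT activity is known to help keep the naive state.

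All results below come from single 60-base probes, and a few of these carry the findings. They are printed 5′ to 3′ with G and C in capitals, because the share of G and C in the probe moved with one of the results. Positions are those given in the files, on build mm9, for the whole probe; the files do not give exon or UTR annotation. For 4 genes, the first 30 bases of the probe are shown. The 2 Dvl3 probes come from the same transcript and disagreed completely: the first was well above background on 24 of 24 arrays and the second on 0 of 24. The second Dvl3 probe covers 592 genomic bases and the Gsk3b probe 3646, so each crosses an intron.
Dvl3, first probe, chr16:20531470-20531529, + strand: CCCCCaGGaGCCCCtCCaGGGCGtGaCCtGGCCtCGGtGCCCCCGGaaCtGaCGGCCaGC
Dvl3, second probe, chr16:20526468-20527059, + strand: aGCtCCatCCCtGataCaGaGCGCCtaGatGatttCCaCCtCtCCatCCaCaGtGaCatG
Wnt7b, first 30 bases, chr15:85365877-85365935, - strand: tGGGCtGtGttCCtGCCtCCtCtGGaGGGG
Lrp5, first 30 bases, chr19:3584971-3585030, - strand: aCCtCGGCCGtCCaCCCGGCCCtGCtGCCt
Wnt1, first 30 bases, chr15:98624201-98624260, + strand: aGtGGCtCCtCGCCCCCaCCaatGtaGtat
Dkk1, first 30 bases, chr19:30620529-30620588, - strand: atGCaGaaGGaaGCCtGCCaaCttaaGCCa
Wls, chr3:159536050-159536109, + strand: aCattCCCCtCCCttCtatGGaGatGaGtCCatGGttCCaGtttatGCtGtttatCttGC
Lrp6, second probe, chr6:134404723-134404782, - strand: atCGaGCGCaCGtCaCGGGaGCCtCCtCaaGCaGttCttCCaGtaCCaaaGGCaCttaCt
Gsk3b, second probe, chr16:38187987-38191632, + strand: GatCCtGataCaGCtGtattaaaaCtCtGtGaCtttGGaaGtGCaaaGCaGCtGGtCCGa

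The files hold linear spot intensities, and values are given as normalized log2 signal, which is the log2 of the processed signal minus the 75th percentile of its array. The 75th percentile lay between 47.3 and 128 intensity units, and 38.6% to 49.7% of spots per array were well above background. A probe was called well above background by the flag in the scanner file. All 10 inner cell mass, 10 trophectoderm and 10 primitive endoderm marker genes were measured above background on at least 4 arrays. Of 10 cumulus and granulosa markers, genes of the cells around the egg, 6 were above background on 0 arrays. Of the same 10, 2 were tested and 1 was above background on all 24 arrays. Of 8 oocyte markers, 3 were at 0 arrays, 4 were tested and 1 was above background on all 24.

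Which array position a pool had on its slide moved with many genes and has to be given first. Each of the 3 slides held 8 arrays in 2 rows of 4. The 9 arrays in row 2, columns 2 to 4, stood apart from the other 15 on the first principal component of the 13024 genes above background on every array, which took 30.4% of the variance. Their scores ran from 12.5 to 36.5 and those of the other arrays from -21.8 to -8.14, apart from HC5 pool 3, which scored 4.61. This division was chosen after the signals had been seen, so no test is given for it. HC1, HC2 and HC3 had 2 of 4 pools in these positions and HC4, HC5 and HC6 had 1 of 4. The comparison of all of row 2 with row 1, 12 arrays each, was also added after the data were seen. Row 2 holds these 9 arrays, so the comparison is not a separate test of the division. In it, limma with slide and condition in the model called 11.6% of the 18387 genes tested. HC5 pool 3 and HC6 pool 3 also stood apart: the first had the lowest primitive endoderm score of all pools (-0.74) and the second the lowest trophectoderm score (-0.43), a score being the mean deviation of the marker genes from their 24-array means. Together these 2 pools held the lowest value of 10 of the 18 WNT genes measured on all arrays. The same share over all genes was not computed, so this count does not set the WNT genes apart.

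Detection differed by role in the pathway. A gene was counted by its most often detected probe. Of the 57 genes, 18 (31.6%) were above background on all 24 arrays, 8 on 4 to 23 arrays, 20 on 1 to 3 arrays and 11 (19.3%) on 0 arrays. Over all gene names on the array, 35.3% were above background on all 24 arrays and 27.9% on 0.

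**Figure D1:**
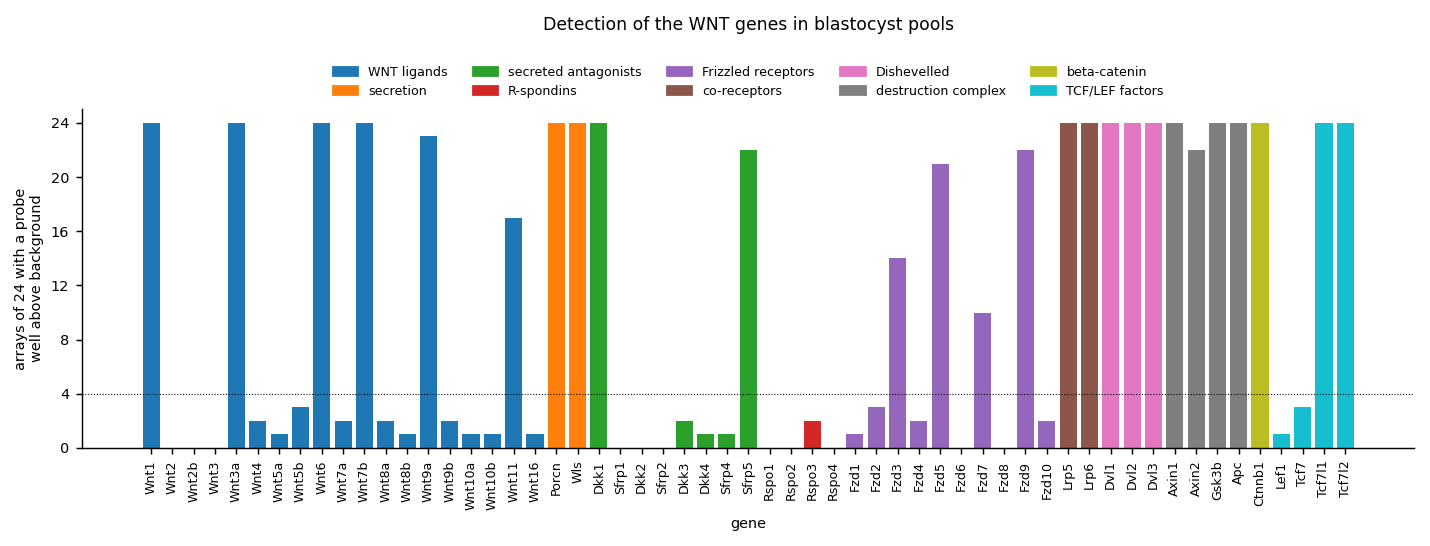
Number of arrays of 24 (vertical axis) on which the most often detected probe of each of the 57 genes (horizontal axis) was well above background, coloured by role; the dotted line marks the 4 arrays needed for testing. Secretion, co-receptor, Dishevelled and beta-catenin genes reached 24 of 24, while 0 of 10 Frizzled and 0 of 4 R-spondin genes did.

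Among the 19 ligands, Wnt1, Wnt3a, Wnt6 and Wnt7b were above background on all 24 arrays, Wnt9a on 23 and Wnt11 on 17. Wnt11 acts mostly through routes that do not need beta-catenin. Another 10 ligands were detected on 1 to 3 arrays, among them Wnt5b on 3 and Wnt4, Wnt7a, Wnt8a and Wnt9b on 2 each, and Wnt2, Wnt2b and Wnt3 were detected on 0. Both secretion genes, Porcn and Wls, were above background on every array. Of the 8 secreted antagonists, Dkk1 was above background on 24 arrays and Sfrp5 on 22. Dkk3 was detected on 2 arrays, Dkk4 and Sfrp4 on 1 each, and Dkk2, Sfrp1 and Sfrp2 on 0. Of the R-spondins, Rspo3 was detected on 2 arrays and Rspo1, Rspo2 and Rspo4 on 0.

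The 10 Frizzled receptors had no member above background on every array. Fzd9 reached 22 arrays, Fzd5 21, Fzd3 14 and Fzd7 10. Fzd2 was detected on 3 arrays, Fzd4 and Fzd10 on 2 each, Fzd1 on 1, and Fzd6 and Fzd8 on 0. Their co-receptors Lrp5 and Lrp6 were above background on all 24. So were Dvl1, Dvl2 and Dvl3, and Axin1, Apc and Gsk3b of the destruction complex. Axin2, a negative regulator that is itself a target of the pathway, was above background on 22 arrays. Ctnnb1, Tcf7l1 and Tcf7l2 reached 24, whereas Tcf7 was detected on 3 arrays and Lef1 on 1. A probe that is not well above background sets a bound on signal and does not show that the RNA was missing.

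Probes of one gene could disagree. In 10 genes, probes designed to the same transcript were above background on different numbers of arrays, and in 8 of these the more often detected probe lay nearer the 3′ end. Axin1, Ctnnb1, Dvl1, Gsk3b and Wls had probes of one transcript that were all above background on 24 arrays. The same shares over all genes were not computed, so these counts do not set the WNT genes apart. In 5 of the 10 both probes were detected on 3 arrays or fewer, so those differences are of 1 or 2 arrays near background; of the other 5 genes, 4 had the more often detected probe nearer the 3′ end. Besides Dvl3, the Axin2 probe at transcript base 4142 was above background on 22 arrays and the one at base 1971 on 1. For Lrp6, the probe at base 5362 reached 24 arrays and the printed second probe at base 4597 reached 12. Fzd5 and Wnt5a went the other way: the Fzd5 probe at base 2015 reached 21 arrays and the one at base 4507 reached 10. The cause was not tested. Detection numbers for a gene therefore hold for its most often detected probe.

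The first comparison asked whether any of the 26 genes above background on at least 4 arrays differed among the 6 conditions. None was called: limma's F-test, adjusted by Benjamini-Hochberg over 18387 genes, passed 0 of 26 members and 0% of all genes. At an unadjusted p under 0.05 it passed 0 of 26 members, against 2.09% of all genes. The smallest unadjusted p among members was 0.0868 for Lrp6, followed by 0.269 for Tcf7l1 and 0.342 for Apc.

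**Figure D2:**
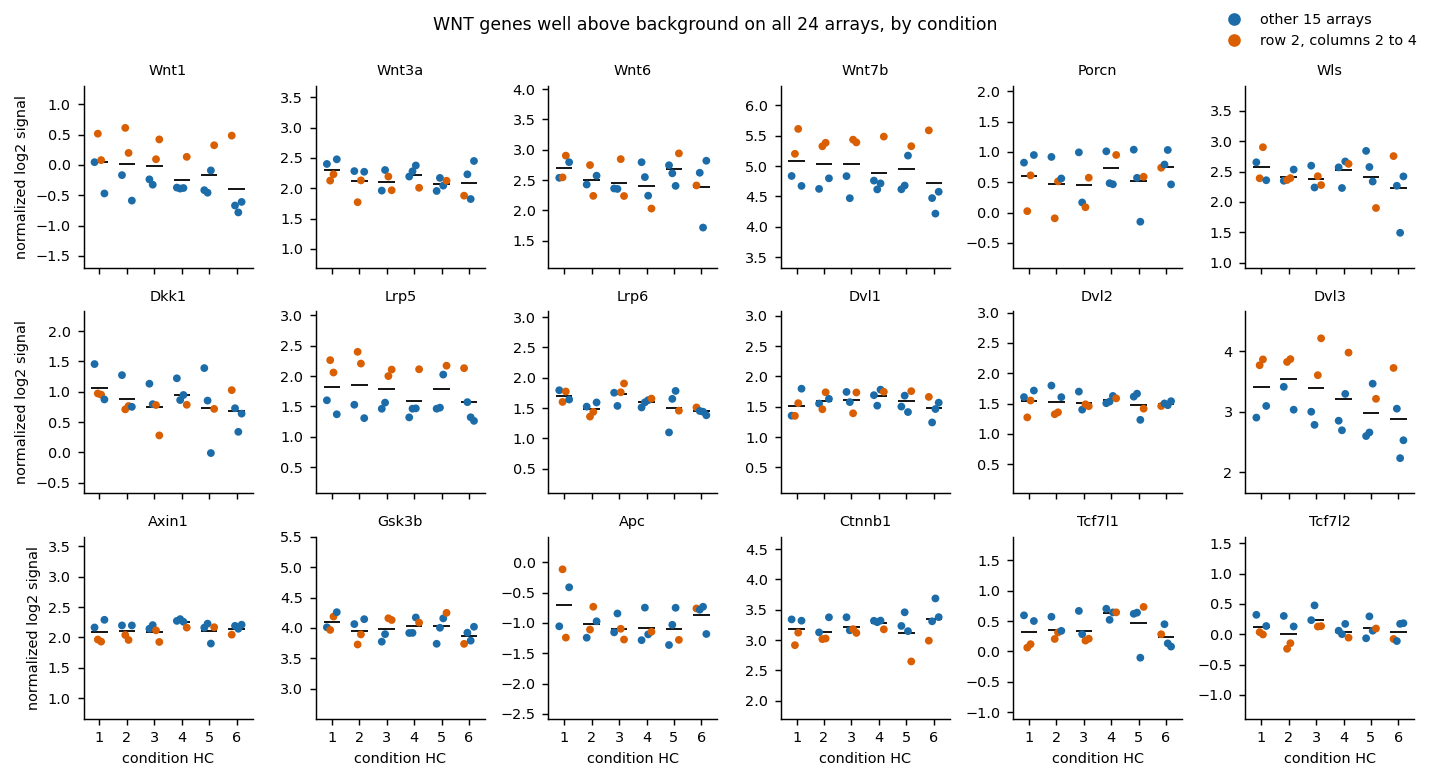
Normalized log2 signal (vertical axis, each panel spanning the same 3 log2 units) of the 18 WNT genes above background on all 24 arrays, for each pool by condition HC1 to HC6 (horizontal axis); lines are condition means and orange points are arrays in row 2, columns 2 to 4. The pools of different conditions overlap in nearly all panels, and in Wnt7b, Lrp5, Wnt1 and Dvl3 the orange points lie above most of the blue ones.

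Lrp6, a co-receptor that binds WNT with Frizzled, read 1.79, 1.60, 1.77 and 1.64 in HC1 pools 1 to 4. It read 1.52, 1.36, 1.44 and 1.59 in HC2 and 1.75, 1.53, 1.76 and 1.90 in HC3. In HC4 the pools stood at 1.51, 1.59, 1.63 and 1.66, in HC5 at 1.098, 1.65, 1.78 and 1.46, and in HC6 at 1.51, 1.45, 1.44 and 1.38. The HC3 pools were all above those of HC6, and HC5 covered nearly the whole range. The HC3 mean of 1.74 ± 0.15 (SD, n = 4) was 0.19 ± 0.09 (SE) log2 above the mean of the other 20 pools; its 95% interval ran from 0.01 to 0.38, and limma's adjusted p was 1.00. Between HC3 and HC6 the difference was 0.29 ± 0.12, with an unadjusted p of 0.0195 and an adjusted p of 1.00. Between HC2 and HC3 it was -0.26 ± 0.12, with an unadjusted p of 0.0354. Lrp6 was also a member of smallest p in HC2 (-0.12, or -0.078 without HC2 pool 2) and in HC6 (-0.16). The HC3 and HC6 directions rest on the probe chosen: with the mean of both kept probes the HC3 difference was -0.03 and the HC6 difference 0.11. The HC2 difference kept its sign, at -0.17.

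Tcf7l1, a TCF factor that mainly represses its targets, read 0.70, 0.52, 0.64 and 0.64 in HC4, and its HC4 mean of 0.63 ± 0.08 was 0.28 ± 0.13 (SE) log2 above the others (interval 0.02 to 0.55, adjusted p 0.998). In HC6 it read 0.28, 0.45, 0.13 and 0.08. The HC4 and HC6 pools did not overlap and differed by 0.39 ± 0.17, with an unadjusted p of 0.0285 and an adjusted p of 1.00. This pair and that of Lrp6 in HC3 and HC6 were picked for small p among 390 member and pair combinations. How often the pools of a pair do not overlap over all genes was not computed, so neither separation sets its gene apart. The lowest Tcf7l1 value of all, -0.10, was in HC5 pool 3.

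Apc, a scaffold of the destruction complex, read -1.06, -0.12, -1.24 and -0.41 in HC1. Its 2 high HC1 pools made the mean 0.33 ± 0.16 (SE) log2 above the others, and the other 2 HC1 pools lay within the range of other conditions. The interval was -0.01 to 0.66. Without HC1 pool 3 the difference was 0.51 and without HC1 pool 2 it was 0.13.

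Fzd3, a Frizzled receptor best known for axon guidance, had the widest spread of detection by condition. Its probe was above background on 4 of 4 arrays in HC3 and HC4, 2 of 4 in HC2 and HC5, and 1 of 4 in HC1 and HC6. The signal was -2.25, -0.87, -2.05 and -2.28 in HC3 and -2.43, -1.62, -2.02 and -2.29 in HC4. In HC1 it was -2.76, -2.09, -2.44 and -2.44 and in HC6 -1.55, -2.09, -2.39 and -2.64, so the signals overlapped although the flags differed. In HC2, where Fzd3 was the member of second smallest p, its mean lay 0.33 ± 0.26 (SE) log2 below the others (-0.33), and -0.14 without HC2 pool 2.

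Each condition was then set against the other 5. Again 0 of 26 members passed in any condition after adjustment, and 0% of all genes. At an unadjusted p under 0.05, HC3 had 1 member (Lrp6) against 1.58% of all genes and HC4 had 1 (Tcf7l1) against 1.88%. HC1, HC2, HC5 and HC6 had 0 members, against 3.21%, 2.24%, 5.48% and 2.97% of all genes. Over the 6 conditions together this was 2 of 156 (1.28%) for members and 2.89% for all genes. Sfrp5, a secreted antagonist, was 0.69 ± 0.36 (SE) log2 lower in HC1, but its difference was -0.09 without HC1 pool 1, whose signal of -3.92 was not well above background. Axin2 was 0.51 ± 0.33 higher in HC5, where pool 3 read 0.48 and the other pools -1.55, -1.02 and -1.93. Without HC5 pool 3 that difference was 0.01.

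The other members of smallest p in a condition moved less. Tcf7l2 was 0.18 ± 0.10 (SE) log2 higher in HC3, Axin1 0.14 ± 0.08 higher in HC4 and Wnt6 0.19 ± 0.16 higher in HC5. Without HC3 pool 2 the Tcf7l2 difference was 0.10, and without HC5 pool 4 the Wnt6 difference was 0.099. Gsk3b, the kinase that marks beta-catenin, was lower in HC6 by 0.16 ± 0.10 (-0.16). The median member difference ran from -0.09 in HC6 to 0.07 in HC1, and that of all genes from -0.02 in HC2 to 0.05 in HC4. Over the 15 pairs of conditions, 0 of 390 member and pair combinations passed after adjustment (0% of all), and 5 had an unadjusted p under 0.05, against 2.84% over all genes and pairs.

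The intervals show how large a difference these arrays could have missed. For 23 of 26 members, the 95% interval of every condition against the other 5 stayed within 2-fold either way, against 78.4% of all genes tested. The exceptions were Axin2, Dvl3 and Sfrp5. Among genes above background on all arrays it held in 17 of 18 members (94.4%), against 96.2% of genes. For all 15 pairs it held in 18 of 26 members, and in 16 of the 18 (88.9%), against 88.6% of genes above background on all arrays. With array position as a block, added after the data were seen, 0 of 26 members passed in the F-test and in every condition and pair.

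The other genes of the pathway gave the same count. Of 66 genes listed, such as receptor regulators, casein kinases, co-repressors and known targets, 50 were tested and 0 passed the F-test or a condition contrast in either direction. Amer1, an Apc partner at the membrane, had an unadjusted p of 0.00513; its differences ran from -0.40 log2 in HC5 to 0.31 in HC3. Ccnd1, a cyclin and WNT target, had 0.0219; it was lowest in HC2 (-0.75) and highest in HC3 (0.51). Next were Daam1 (0.135), Vangl2 (0.176) and Btrc (0.209), of the cell polarity route for the first 2 and of beta-catenin degradation for Btrc. The list median lay between -0.07 in HC5 and 0.06 in HC4. For slide row, 10 of the 50 (20%) passed, against 11.6% of all genes.

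The 18 members above background on all arrays differed in how much they varied over the 24 pools. Axin1 was the steadiest, at 2.13 ± 0.12 (SD, n = 24), followed by Dvl2 (SD 0.14), Dvl1 (0.16), Tcf7l2 (0.17) and Gsk3b (0.17). The most variable of the 18 were Dvl3 (0.53), Wnt7b (0.41), Wnt1 (0.41), Lrp5 (0.37) and Porcn (0.36). This order holds for the probes used. Among other probes above background on all 24 arrays, the SD was 0.15 for Wnt7b, 0.33 for Dvl1 and 0.19 for Axin1. It was 0.41 and 0.17 for 2 other Tcf7l2 probes and 0.18 and 0.27 for 2 other Gsk3b probes. The median SD was 0.27 for the 18 members and 0.22 for all 13024 genes above background on all arrays. Among members detected on fewer arrays, Sfrp5 (0.67), Axin2 (0.61) and Fzd5 (0.54) had larger SDs.

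Of these 5 variable genes, Wnt7b, Lrp5, Wnt1 and Dvl3 were higher at one set of array positions. Wnt7b, a ligand, ran from 5.20 to 5.61 with a median of 5.39 on the 9 arrays in row 2, columns 2 to 4, and from 4.22 to 5.17 with a median of 4.67 on the other 15. The 2 ranges did not overlap, and the highest of the 15 was HC5 pool 3, the next 4.84. Lrp5, the other WNT co-receptor, ran from 2.00 to 2.40 (median 2.13) on the 9 arrays and from 1.26 to 2.02 (median 1.46) on the 15. Its value of 2.02 in HC5 pool 3 was the single overlap, and without it the highest was 1.60.

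Wnt1, a ligand first known from mammary tumours and the midbrain, ran from 0.08 to 0.61 (median 0.32) against -0.78 to 0.04 (median -0.39), with no overlap. Dvl3, which relays the receptor signal, ran from 3.21 to 4.21 (median 3.82) against 2.23 to 3.46 (median 2.90), and overlapped. Ctnnb1 moved the other way, from 2.65 to 3.18 (median 3.03) on the 9 arrays against 3.13 to 3.69 (median 3.32). In all, 2 of 18 members had ranges that did not overlap, against 3.68% of all genes, and without HC5 pool 3 it was 3 of 18, against 5.94%. Axin2, above background on 22 arrays, was 0.91 log2 lower on the 9 arrays (-1.999 ± 0.25, SD, n = 9) than on the 15 (-1.09 ± 0.50, SD, n = 15). The Axin2 probe used holds 25% G and C, the lowest of all member probes, and the other Axin2 probe was detected on 1 array.

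**Figure D3:**
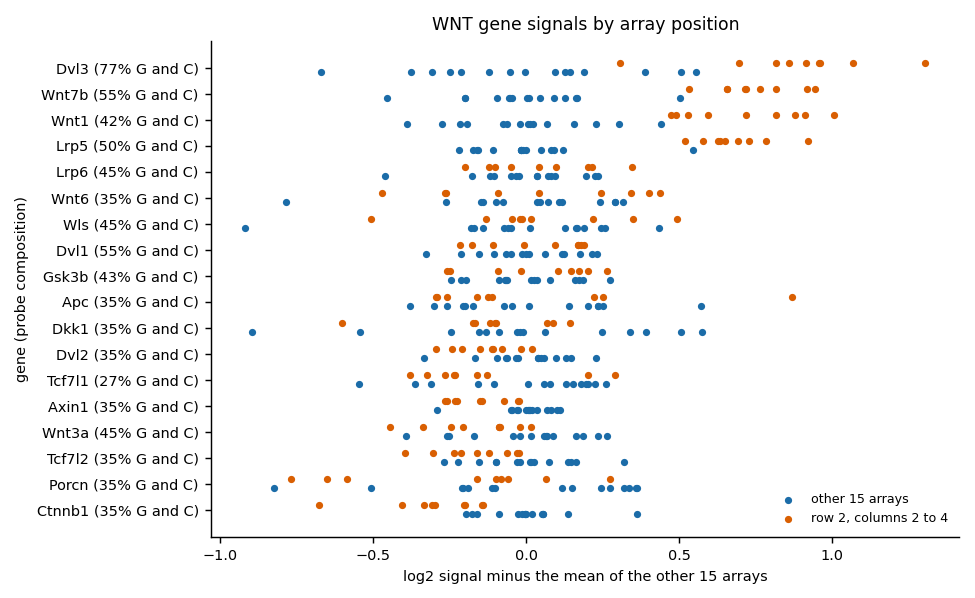
Normalized log2 signal of each pool minus the mean of the 15 arrays outside row 2, columns 2 to 4 (horizontal axis), for 18 WNT genes with the share of G and C in their probe (vertical axis). Orange points are the 9 arrays in row 2, columns 2 to 4; they lie to the right in Dvl3, Wnt7b, Wnt1 and Lrp5 and to the left in Ctnnb1.

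The tested form of this, row 2 against row 1, called 3 of 26 members with limma, against 11.6% of all genes. Axin2 was lower in row 2 by 0.92 ± 0.16 (SE, adjusted p 0.0106), Wnt3a was lower by 0.23 ± 0.06 (adjusted p 0.0301) and Wnt7b was higher by 0.51 ± 0.15 (adjusted p 0.0385). The Wnt7b call holds for the probe used: between the plain row means it differed by 0.50, and the second Wnt7b probe by 0.04. Lrp5 (0.45 ± 0.14, adjusted p 0.0507) and Wnt1 (0.43 ± 0.15, adjusted p 0.0605) did not pass. Which slide a pool was on called 0 members and 0% of genes.

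Probe composition moved with the position difference. Across the 18 members, r between the percent of G and C in the probe and the difference between the 9 and the 15 arrays was 0.74, and across the 13024 genes it was 0.46; genes are not independent replicates. The Dvl3 probe, at 76.7% G and C, had a difference of 0.88 log2. All 367 genes with over 55% G and C had a median difference of 0.35, and the 2994 genes with up to 35% had -0.19. Wnt1, with 41.7% G and C, differed by 0.71, where genes with over 35% and up to 45% had a median of -0.09. Lrp5 (0.68) and Wnt7b (0.75) also lay far above the median of 0.05 of genes with over 45% and up to 55%, where Dvl1 (0.03) lay near it. The part of probe composition in the position difference was not tested.

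A second probe was available for some of these genes. The second Wnt7b probe, above background on all 24 arrays, differed by 0.08 log2 between the 9 and the 15 arrays, where the first differed by 0.75. The other Ctnnb1 probes differed by -0.14 and 0.06, where the one used differed by -0.30. The probes of Wnt7b and of Ctnnb1 thus did not show the same position difference. Over 24 pools the r between 2 probes of a gene was 0.79 in Wls, 0.71 in Gsk3b for the printed second probe and 0.07 for another, 0.56 in Dvl1, 0.38 in Wnt7b and 0.04 in Axin1. For Ctnnb1 it was 0.45 and 0.20. For Tcf7l2 it was 0.04 and -0.11.

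The next question was how members varied beside the lineage makeup of the pool. Each of the 18 members was set against 3 scores over 24 pools, 54 relations in all, with limma and adjustment over all genes and scores. For the inner cell mass score 7 of 18 members passed (25.3% of all genes above background on all arrays), for the trophectoderm score 2 (6.66%) and for the primitive endoderm score 4 (5.34%). Of all 54 relations 13 passed, against 12.4%. With array position as a block, 5 passed, against 2.65%: 0 for inner cell mass, 2 for trophectoderm and 3 for primitive endoderm. With slide row as the block, 10 passed, against 5.86%: 5 for inner cell mass (9.04% of all genes), 2 for trophectoderm and 3 for primitive endoderm. In pooled embryos, fewer cells of a type and less RNA per cell cannot be told apart. A score of the 2 cumulus and granulosa genes tested ran from -1.29 to 1.08 over the pools. Its r was -0.53 with the inner cell mass score, -0.50 with the trophectoderm score and -0.07 with the primitive endoderm score. What part cells around the egg had in the relations was not tested.

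**Figure D4:**
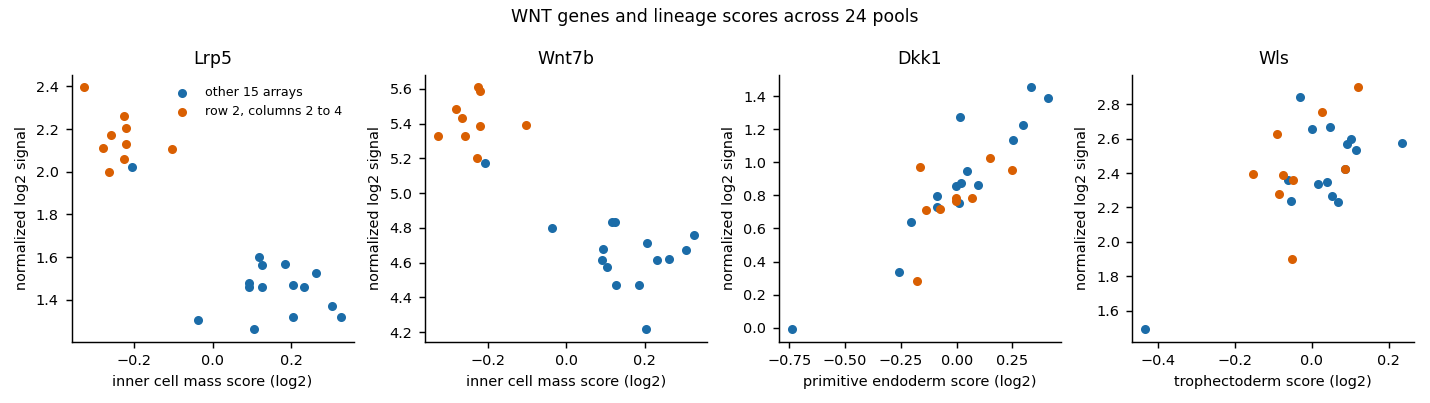
Normalized log2 signal of Lrp5, Wnt7b, Dkk1 and Wls (vertical axes) against the inner cell mass score (Lrp5, Wnt7b), primitive endoderm score (Dkk1) or trophectoderm score (Wls), each in log2 (horizontal axes), for 24 pools coloured by array position. Lrp5 and Wnt7b fall into clusters that follow array position, Dkk1 rises along the whole primitive endoderm score, and HC6 pool 3 is the lowest point of both axes for Wls.

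The inner cell mass score itself divided by position, so r over all pools is given for it only to compare probes of a gene. It ran from -0.33 to -0.10 on the 9 arrays and from -0.04 to 0.33 on the others, apart from HC5 pool 3 at -0.21. Most of this came from Tdgf1, a Nodal co-receptor, and Prdm14, a pluripotency factor, which were 1.42 and 1.26 log2 lower on the 9 arrays. Of the 10 markers, Pou5f1 alone was higher, by 0.12. The rest were lower, from 0.05 for Klf2 to 0.20 for Nanog and 0.38 for Sox2. The 7 members that passed without the block were Lrp5, Wnt7b, Wnt1, Dvl3, Axin1, Ctnnb1 and Dvl2. These calls hold for the probe used. Over all pools r was -0.88 for the Wnt7b probe used and -0.16 for the second. For Axin1 it was 0.74 and -0.09. For Ctnnb1 it was 0.67 for the probe used, and 0.49 and -0.20 for the others. All these probes were above background on all 24 arrays. Within the 9 arrays r was -0.39 for Lrp5, 0.08 for Wnt7b, 0.01 for Wnt1 and 0.48 for Dvl3. Within the 15 arrays it was -0.59, -0.56, -0.21 and -0.19 in that order, and without HC5 pool 3 it was 0.00, -0.17, 0.09 and 0.21. Axin1 had 0.80 within the 15 arrays, 0.53 without HC5 pool 3, and -0.61 within the 9. With the block, the adjusted p was 0.132 for Lrp5, 0.243 for Wnt7b and 0.310 for Axin1. With slide row as the block, 5 members passed for this score: Lrp5 (adjusted p 0.000472), Wnt7b (0.00143), Porcn (0.0116), Wnt1 (0.0139) and Dvl3 (0.0355). Row 2 holds column 1 beside the 9 arrays, so this block does not remove the division by position. Within rows 1 and 2 r was -0.35 and -0.84 for Wnt1, and -0.19 and -0.81 for Dvl3.

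Dkk1, a secreted antagonist that blocks Lrp5 and Lrp6, rose with the primitive endoderm score. It read 1.46, 0.97, 0.95 and 0.87 in HC1, 1.27, 0.71, 0.77 and 0.75 in HC2, and 1.13, 0.80, 0.78 and 0.28 in HC3. In HC4 it read 1.22, 0.86, 0.95 and 0.79, in HC5 1.39, 0.85, -0.01 and 0.72, and in HC6 1.03, 0.73, 0.34 and 0.64. The pool numbered 1 was the highest of 4 in all 6 conditions, and its primitive endoderm score was too. This pattern was noticed in the values. It held for 33 of 13024 genes (0.253%), and Dkk1 was the only one of the 18 members. The pools numbered 1 were all on slide 1, where the only other pools were HC1 pool 2 and HC2 pool 2. These 2 pools read 0.97 and 0.71 for Dkk1, below all pools numbered 1, of which the lowest read 1.03. Their primitive endoderm scores were -0.16 and -0.14, and the lowest score of a pool numbered 1 was 0.01. Only these 2 pools bear on pool number apart from slide, and the difference was not tested.

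For Dkk1 and this score, Pearson's r was 0.88 and Spearman's rho 0.84 (n = 24), each with a two-sided permutation p of 1e-05, the smallest that 100000 resamples can give. The limma adjusted p was 4.73e-06. Without the 2 pools farthest from the median score, HC5 pools 1 and 3, r was 0.79, and without HC5 pool 3 alone it was 0.83. It was 0.94 within the 15 arrays and 0.59 within the 9. Within slides 1, 2 and 3 r was 0.79, 0.88 and 0.91, with 8 pools each. With the means of each pool number removed r was 0.83. The slope was 1.24 log2 per log2 of score, and 1.24 with array position as a block (adjusted p 5.35e-05).

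Tcf7l1 and Porcn also rose with the primitive endoderm score. For Tcf7l1 r was 0.66 and rho 0.63 (n = 24, permutation p 0.00031 and 0.00111, adjusted p of the limma fit 0.00978). Within the 15 arrays r was 0.88 and within the 9 it was 0.05. Without HC5 pool 3 the adjusted p was 0.0620, and without the 2 farthest pools r was 0.53. With normexp background correction and quantile normalization the adjusted p was 0.0727, and with replicate number as a block it was 0.0931. Within slides 1, 2 and 3 r was 0.83, 0.06 and 0.81, so slide 2 showed little relation. For Porcn r was 0.61 and rho 0.57 (n = 24, permutation p 0.0011 and 0.00468, adjusted p 0.0182), 0.69 within the 15 arrays and 0.56 within the 9, and 0.41 without the 2 farthest pools. Within the 15 arrays it was 0.41 without HC5 pool 3. Within slides 1, 2 and 3 it was 0.86, -0.33 and 0.88, and so ran the other way on slide 2. The fourth member that passed was Wls, with r 0.57 and rho 0.69 (n = 24, permutation p 0.00714 and 0.00035, adjusted p 0.0342), 0.54 and 0.78 within the 15 and the 9 arrays. Its adjusted p was 0.0878 with array position as a block, 0.0639 with slide as a block and 0.129 with the condition means removed.

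Wls and Wnt6 rose with the trophectoderm score, but both relations rest on 1 pool. For Wls r was 0.65 and rho 0.40 (n = 24, permutation p 0.00282 and 0.0525, adjusted p 0.00958). HC6 pool 3 had the lowest score and the lowest Wls (1.49, next 1.90). Without that pool r was 0.33 and the adjusted p 0.333, and without the 2 farthest pools r was 0.32. The second Wls probe gave the same r of 0.66 over all pools. For Wnt6, a ligand, r was 0.62 and rho 0.51 (n = 24, permutation p 0.00255 and 0.0121, adjusted p 0.0178). Its lowest value, 1.72, was also in HC6 pool 3, and without that pool r was 0.35 and the adjusted p 0.287.

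**Figure D5:**
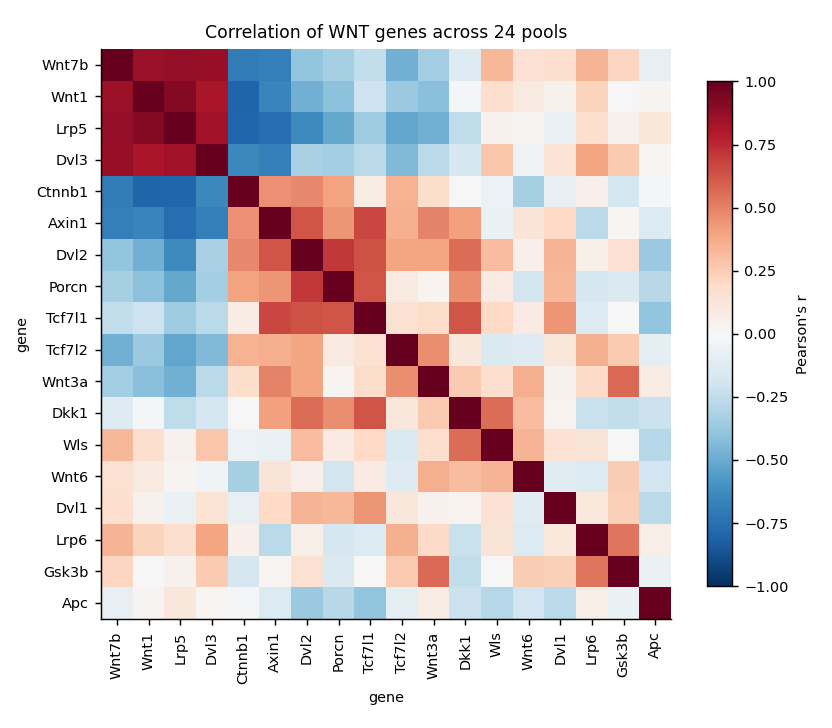
Pearson's r over 24 pools between each pair of the 18 WNT genes above background on all arrays (both axes), from -1 (blue) to 1 (red). Wnt7b, Wnt1, Lrp5 and Dvl3 form a red block that is blue against Ctnnb1 and Axin1.

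Among the 153 pairs of these 18 members, r was over 0.5 in 16 pairs and under -0.5 in 11, with a median of 0.05. These are descriptions over the same 24 pools, which share array position. The same shares over pairs of all genes were not computed, so the counts do not set the WNT genes apart. Lrp5 with Wnt1 had the highest r (0.92), and it was 0.62 within the 15 arrays and 0.76 within the 9. Lrp5 with Wnt7b had 0.88 over all pools and 0.57 and -0.61 within the sets. Wnt1 with Ctnnb1 had -0.80, and -0.61 and -0.41 within the sets. Dvl2 with Porcn had 0.70, and 0.66 and 0.70 within the sets. Of the 27 pairs with r beyond 0.5 either way, 7 were beyond 0.5 the same way in both sets.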

How the data were processed

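Total RNA of each pool was amplified and labelled with Cy3 for 1 array, per the labels' protocols. The deposited scanner files give linear intensity, background subtracted and detrended within each array. The submitters' processing notes name Agilent Feature Extraction 10.10.1.1 and limma. The authors' deposited table of log2 values served as an alternative; how it was normalized is not given in the sources used here.

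Control and outlier spots were left out, spots of a probe were averaged as log2, then lowered by their array's 75th percentile. Probes needed the background flag on 4 or more arrays, which 27074 met, and 2 or more values in every condition. A gene took its brightest kept probe. Names came from a reference table for 41700 probes by symbol, 1661 by accession and 488 by synonym, and from the file for 12756. A model with a mean for each of 6 conditions was run in R 4.3.3 (limma 3.58.1) and tested by eBayes with Benjamini-Hochberg adjustment at 0.05 over all genes. The code was tested on simulated data. Other tools were Python 3.11.15, numpy 2.4.6, pandas 2.3.3, scipy and matplotlib. Probe sequences and mm9 positions are from the scanner files.

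The members, marker and pathway lists, tests and alternatives were chosen with earlier results of these data known. By rule, values are given for the 3 members of smallest F-test p, the 2 of smallest p in each condition, the 3 smallest member and pair combinations, the 5 highest and 5 lowest in SD, members whose detection differs between conditions, and up to 10 relations with scores; of other pathway genes, the 5 of smallest p. Porcn and Wls with the primitive endoderm score, the array position division and the comparison of slide rows were added after values were seen. The relations were planned with adjustment over the member relations; they were adjusted over all genes and 3 scores instead. Alternatives are other scalings, background corrections, filters and probe rules, slide, slide row, array position and replicate number as blocks, array weights, and leaving out each pool. The number of arrays limits the precision.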

Additional observations from a re-analysis of the deposited data

Results flagged for a closer look

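In the 108 groups of 4 pools formed by 18 genes and 6 conditions, 7 had a highest or lowest pool with a gap to the next beyond Dixon's 95% critical value. Chance gives this in about 1 in 20 groups. Apc in HC6 pool 4 stood at -1.18, below the next pool at -0.78. Dkk1 was high in HC1 pool 1, at 1.46 against 0.97, and in HC2 pool 1, at 1.27 against 0.77. Tcf7l1 was low in HC5 pool 3, at -0.10 against 0.62. Wnt1 was high in HC4 pool 4, at 0.13 against -0.37, and in HC6 pool 1, at 0.48 against -0.61. Wnt7b was high in HC4 pool 4, at 5.49 against 4.76. The Wnt1 and Wnt7b pools are the single pools of HC4 and HC6 in slide row 2, columns 2 to 4.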

How the results depend on the processing

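The counts of 0 members in the F-test, in the 6 conditions and in the 15 pairs, and of 0 other pathway genes, stayed at 0 under every alternative run and with each pool left out. The same held with the replicate block, where the value was 0. The replicate numbers were not treated as pairs, since no label says what they share and same-numbered pools did not all deviate together: deviations of same-numbered pools had a median r of 0.05 and a lowest of -0.49, against a median of 0.01 for different numbers, and 14 of 24 pools correlated best with one of their own number, where 5 of the 20 pools in other conditions share it. The best matches are a hint from the data, not from the design. The pools numbered 1 were all on slide 1 and those numbered 4 all on slide 3, so pool number is partly tied to slide. Of 54 lineage relations, 13 passed (12.4% over all genes and scores). With the replicate block 9 passed (10.8%), and Tcf7l1 with the primitive endoderm score had an adjusted p of 0.0931. The number was 6 with normexp and quantile normalization (4.1%), 7 with the authors' table (3.82%), 10 with slide row as a block (5.86%) and 5 with array position as a block (2.65%). Within the 15 arrays it was 2 (1.76%) and within the 9 arrays it was 0 (0%). The cause was not tested, beyond fewer samples in the last 2. Leaving out 1 pool gave 10 to 15, with 10 without HC5 pool 3 (11.7%) and 15 without HC5 pool 4 (13.6%). With the mean of kept probes, Lrp6 turned to -0.030 in HC3 and to 0.11 in HC6. Within the 9 arrays the slope on the inner cell mass score turned to 0.18 for Wnt7b, 0.046 for Wnt1, 2.14 for Dvl3 and -0.97 for Axin1. Slide row and array position as blocks were added after the data were seen. Genes below background are limited by their signal.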
